A study of Homo sapiens with 6 samples.

Results

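The genes described here encode integrins, laminins, collagens, matrix glycoproteins, syndecans and the proteins that join integrins to the actin cytoskeleton. They were taken by name from a list of 37 genes, and all 37 were found among the 60612 genes listed for each library. The list holds 7 integrin alpha subunits, 5 integrin beta subunits, 7 laminin chains, 7 collagen chains, 3 matrix glycoproteins, 2 syndecans and 6 focal adhesion proteins. RNA-sequencing was carried out on HCT116, an established line from a human colorectal carcinoma, to find the genes that move when SNORA28, an H/ACA box small nucleolar RNA, is overexpressed. The LV-NC group (3 libraries) was infected with the negative control lentivirus, and the LV-SNORA28 group (3 libraries) with a lentivirus that overexpresses SNORA28. Per the study's methods both were collected at 1 time after infection, and they name puromycin as the selection agent for cells stably overexpressing the snoRNA, without saying whether the sequenced cells were selected. The libraries came from a single cell line in culture, poly(A)+ RNA was selected, and nothing in the sources says that the 3 libraries of a group came from separate infections. The p-values below therefore measure the spread between these libraries, which may be technical.

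Cells hold on to the matrix through integrins, pairs of 1 alpha and 1 beta subunit that bind laminins, collagens or fibronectin outside the cell and recruit talin, vinculin, paxillin and kinases to focal adhesions inside it. Laminins are cross-shaped trimers of an alpha, a beta and a gamma chain, and with type IV collagen they form the basement membrane on which intestinal epithelium rests. In epithelia the ITGA6 and ITGB4 pair binds a laminin that contains the LAMA3 and LAMB3 chains in hemidesmosomes, while ITGA3 pairs with ITGB1 to bind laminins.

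In the LV-NC libraries SNORA28 read 0.92, 0 and 0.64 FPKM, and in the LV-SNORA28 libraries 15.01, 13.66 and 15.20 FPKM, where FPKM counts fragments relative to transcript length and to the total mapped in a library. The difference was 3.41 ± 0.23 (SE) on the log2(FPKM + 1) scale (limma adjusted p = 0.00228). Between 11664 and 12259 genes per library reached 1 FPKM, and the read depth is unknown, so no counting interval can be given. Mitochondrially encoded genes took 42.7% to 47.7% of summed FPKM in the LV-NC libraries and 35.9% to 38.3% in the LV-SNORA28 libraries. Of 10 epithelial markers 9 were tested and 0 called by limma (1 at an unadjusted p below 0.05, and 0 at the study threshold given below), with sums of 816 to 918 FPKM in LV-NC and 854 to 901 in LV-SNORA28. VIL1 (villin) was below 1 FPKM throughout. Of 10 fibroblast and mesenchymal markers 7 were below 1 FPKM in every library, and COL1A2, DCN and LUM were at 0. Of the 3 tested 1 was called, beside 8.91% of all genes tested (6.81% higher), and with 3 genes this is a description only. It was ACTA2 (smooth muscle actin), higher by 0.47 on the log2 scale (limma adjusted p = 0.0273). VIM (vimentin) differed by 0.39 (limma adjusted p = 0.0522). VIM reached the mean of 1 FPKM needed for testing only through LV-SNORA28, where it averaged 1.29 FPKM against 0.75 in LV-NC. The mesenchymal markers summed to 6.1 to 7.91 FPKM in LV-NC and to 8.13 to 9.23 in LV-SNORA28. Endothelial markers summed to 0.05 to 0.13 and 0.13 to 0.19 FPKM, and leukocyte markers to 1.08 to 2.21 and 2.49 to 4.16 FPKM, with all 5 endothelial and 4 of 5 leukocyte markers below 1 FPKM. The leukocyte marker that was tested, CD68, averaged 1.69 FPKM in LV-NC and 3.18 in LV-SNORA28. Its groups did not overlap, and 27.0% of all genes tested were likewise higher without overlap. The log2 difference of CD68, 0.64, passed the study threshold but not the adjusted one (limma adjusted p = 0.134). The part of these marker differences in the results below was not tested. For the mitochondrial share, the calls after rescaling to genes outside the mitochondrial genome are given below.

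Of the 37 genes, 28 averaged 1 FPKM or more across the 6 libraries and were tested among 12076 genes, and 4 passed a limma adjusted p of 0.05. LAMB1 and LAMB3, laminin beta chains, rose, and ITGA3, the most abundant integrin alpha subunit, and THBS1, the matricellular glycoprotein thrombospondin 1, fell. The 4 genes are 14.3% of those tested, beside 8.91% of all genes tested. By direction, 2 of 28 rose beside 6.81% of all genes, and 2 fell beside 2.1%. With so few genes these shares are a description only. At the study threshold, a change above 1.5-fold with p below 0.05 before adjustment, taken here on the log2(FPKM + 1) scale, ITGA2, LAMB3 and THBS1 passed, 3 of 28 beside 3.79% of all genes. LAMB1 and LAMA3 also exceeded 1.5-fold as ratios of mean FPKM (1.53 and 1.52) with an unadjusted p below 0.05, but not on that scale. The 3 LV-NC libraries lay wholly above or wholly below the 3 LV-SNORA28 libraries for 10 of the 28 genes (35.7%), 5 in each direction. In both directions together this is near the 35.1% of all genes, which split into 27.0% higher and 8.16% lower. The median log2 fold change was -0.04 over the 28 genes and 0.09 over all genes tested. LAMA3 and FN1 reached the level filter only through LV-SNORA28, where their means were 1.33 and 1.35 FPKM against 0.873 and 0.937 in LV-NC. In bulk RNA, fewer cells making a transcript and less of it per cell cannot be told apart.

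**Figure D1:**
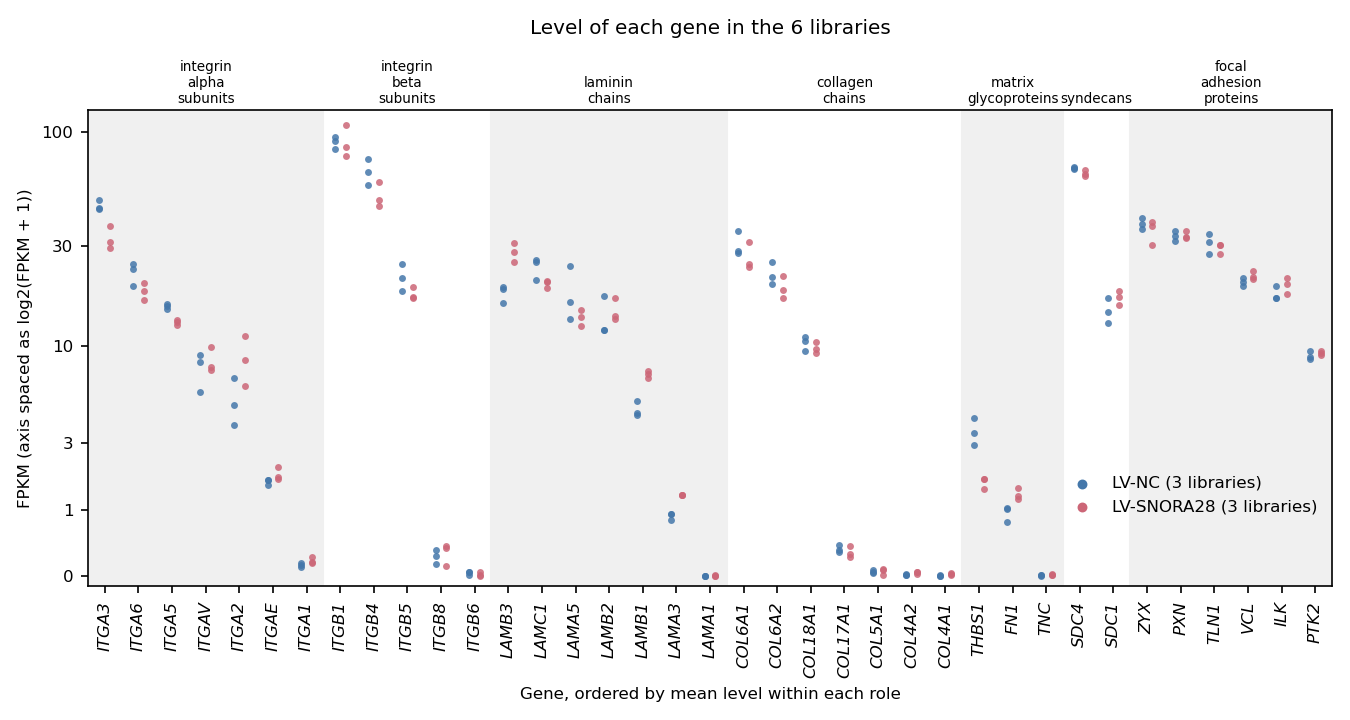
Level of the 37 genes in each library, in FPKM on an axis spaced as log2(FPKM + 1), grouped by role and ordered by mean level. Each point is 1 library, and ITGB1, SDC4 and ITGB4 lie at the top while 9 genes stay at or below 0.39 FPKM.

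**Figure D2:**
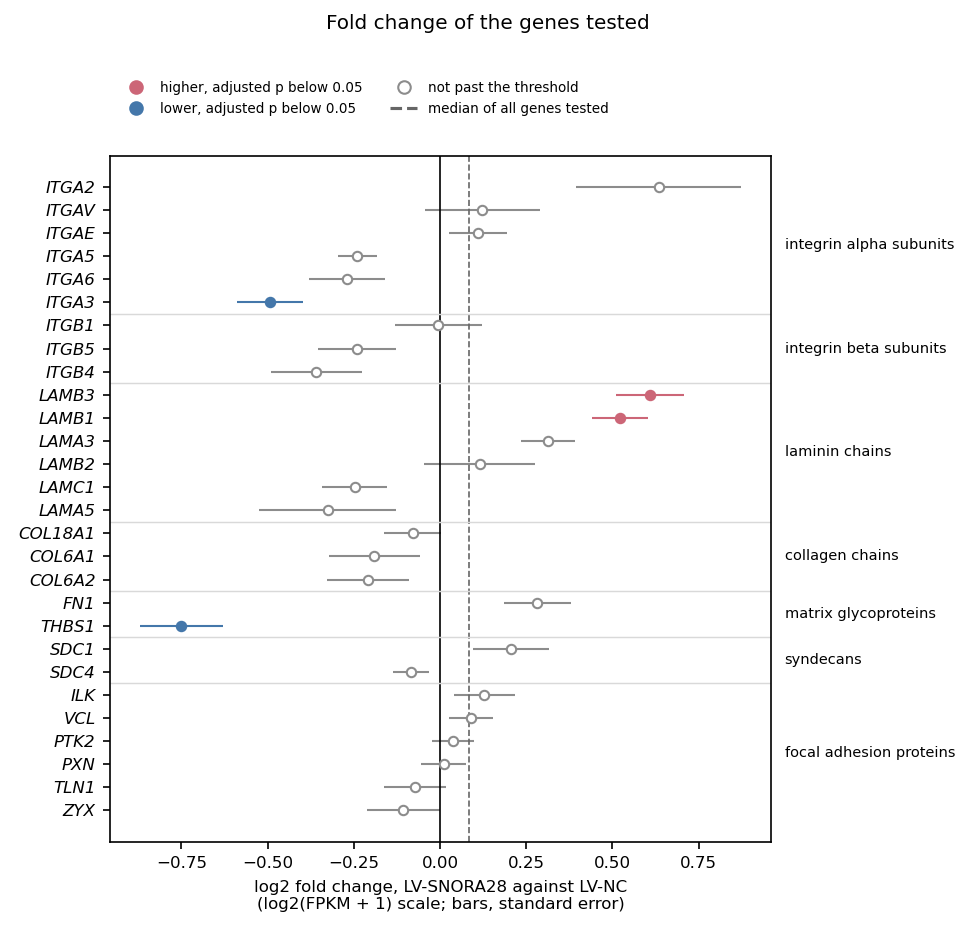
Difference between LV-SNORA28 and LV-NC for the 28 genes tested, on the log2(FPKM + 1) scale, with the standard error from limma as bars. Filled points passed an adjusted p of 0.05, and the dashed line marks the median of all genes tested, 0.09.

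The promoters of the changed laminin genes and of THBS1 are shown, with that of LAMA3, the alpha chain that assembles with LAMB3, so that the members that moved can be seen with the sequence around an annotated start. The windows were taken from RefSeq (GRCh38.p14) and run from 250 bases before a start to 50 after it, 5′ to 3′ on the strand of the gene. Capitals mark TGANTCA, the letters bound by AP-1 (the same on both strands), and GGGCGG or its complement CCGCCC, the core of the GC box. LAMA3 is on the plus strand at chr18:23872770-23873069, LAMB3 on the minus strand at chr1:209651325-209651624, LAMB1 on the minus strand at chr7:108003112-108003411 and THBS1 on the plus strand at chr15:39580829-39581128.
LAMA3: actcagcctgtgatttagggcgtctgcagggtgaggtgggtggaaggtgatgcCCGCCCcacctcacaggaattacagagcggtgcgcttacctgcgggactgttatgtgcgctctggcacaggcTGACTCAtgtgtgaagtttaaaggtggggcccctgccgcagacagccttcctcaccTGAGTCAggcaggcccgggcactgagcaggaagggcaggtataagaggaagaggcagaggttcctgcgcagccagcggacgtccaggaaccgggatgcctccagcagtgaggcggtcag
LAMB3: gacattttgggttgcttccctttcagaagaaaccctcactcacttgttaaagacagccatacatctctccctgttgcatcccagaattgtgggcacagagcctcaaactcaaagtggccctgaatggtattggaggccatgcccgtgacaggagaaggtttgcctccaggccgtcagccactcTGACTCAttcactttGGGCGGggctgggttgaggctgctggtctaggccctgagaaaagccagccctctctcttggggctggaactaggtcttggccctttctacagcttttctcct
LAMB1: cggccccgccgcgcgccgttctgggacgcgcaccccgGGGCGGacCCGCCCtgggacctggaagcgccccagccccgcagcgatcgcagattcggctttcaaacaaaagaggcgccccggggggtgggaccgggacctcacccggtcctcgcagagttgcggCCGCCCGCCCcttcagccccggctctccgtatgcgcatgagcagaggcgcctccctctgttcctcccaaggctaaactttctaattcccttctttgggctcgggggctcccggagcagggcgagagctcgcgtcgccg
THBS1: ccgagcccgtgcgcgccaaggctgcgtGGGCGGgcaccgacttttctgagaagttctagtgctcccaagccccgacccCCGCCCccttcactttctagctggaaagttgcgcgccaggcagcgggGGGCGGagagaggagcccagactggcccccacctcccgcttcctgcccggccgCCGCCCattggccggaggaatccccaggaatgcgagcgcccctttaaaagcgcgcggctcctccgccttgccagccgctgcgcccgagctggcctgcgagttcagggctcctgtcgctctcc

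LAMA3 held TGANTCA at 125 and 69 bases before its start, and LAMB3 held it at 67 bases before the third of its 3 listed starts. The windows of the first and second LAMB3 starts held 0 TGANTCA and 1 GGGCGG match each. The LAMB3 window printed is thus the only one of the 3 with TGANTCA. The LAMA3 start and the third LAMB3 start lie inside the annotated gene and not at its outer end, and gene-level FPKM does not say which start was used. A window was given for 32 of the 37 genes, 43 windows in all. ITGA3, ITGB4, LAMA1, COL6A1 and PTK2 had none. TGANTCA lay in 3 of the 43 windows (6.98%), those of ITGA5, LAMA3 and LAMB3, beside 7.71% of 35116 windows of all genes. GGGCGG or its complement lay in 35 of the 43 (81.4%), beside 45.0% of all windows. LAMB1 and THBS1 held 4 GGGCGG matches each. Among members not called, the first COL18A1 window held 9, those of SDC4 and PXN (first window) 8, and those of LAMB2 and TLN1 1. The LAMB1 and THBS1 windows had 71.0% and 70.0% G or C, and the shares of windows above were not matched for GC content. By their letters TGANTCA and GGGCGG cannot overlap each other, but neighbouring GGGCGG matches can share bases, as those at 88 and 84 bases before the start of LAMB1 do. A match is only a match of letters.

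Among the integrin alpha subunits, ITGA3 (ENSG00000005884, chr17:50055968-50090481) was the most abundant. It read 48.82, 44.74 and 44.96 FPKM in LV-NC, against 37.24, 31.28 and 29.47 FPKM in LV-SNORA28. All 3 LV-SNORA28 libraries lay below all 3 LV-NC libraries. The mean went from 46.2 ± 2.29 to 32.7 ± 4.07 FPKM (SD, n = 3 each), 1.41-fold lower, with a log2 difference of -0.49 ± 0.10 (SE, limma adjusted p = 0.0305). The direction held with each library left out, but the adjusted p stayed below 0.05 only without LV-SNORA28 1 and was 0.0746 to 0.105 without any other library.

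ITGA5, the alpha subunit of the main fibronectin receptor, did not pass, at a limma adjusted p of 0.0503. It read 15.65, 15.14 and 15.88 FPKM in LV-NC and 12.65, 13.40 and 13.01 FPKM in LV-SNORA28, with no overlap and little spread within either group. The log2 difference was -0.24, and 5 of 9 other ways of processing the values put the adjusted p below 0.05, down to 0.0184. With 1 library left out it was 0.0910 to 0.147 and passed in 0 of 6 cases.

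ITGA2, which pairs with ITGB1 as a collagen receptor, passed the study threshold but not the adjusted one. The values were 4.92, 6.87 and 3.80 FPKM in LV-NC and 6.26, 11.17 and 8.47 FPKM in LV-SNORA28, so the groups overlapped through LV-NC 2 and LV-SNORA28 1. The log2 difference was 0.63 ± 0.24 (SE, limma adjusted p = 0.145), the widest error of the 6 alpha subunits tested. ITGA6, the partner of ITGB4, read 24.73, 19.38 and 23.39 FPKM and then 16.77, 18.50 and 20.08 FPKM, with a log2 difference of -0.27 (limma adjusted p = 0.168). LV-NC 2 lay within the LV-SNORA28 range. ITGAV, which binds vitronectin and fibronectin, and ITGAE, the alpha subunit of a cadherin-binding integrin, differed by 0.12 and 0.11 on the log2 scale and neither passed.

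No integrin beta subunit passed the limma adjusted p, although 1 of the 3 tested (ITGB4) had an unadjusted p below 0.05, and 0 of the 3 passed the study threshold. ITGB1, the shared partner of most alpha subunits, was the most abundant gene of the whole list, at 91.25, 95.29 and 83.48 FPKM in LV-NC and 77.91, 85.35 and 108.12 FPKM in LV-SNORA28. LV-SNORA28 held both the lowest and the highest of these values. The log2 difference was 0.00 with a 95% interval of -0.31 to 0.30. ITGB4 read 75.81, 57.41 and 65.74 FPKM and then 59.25, 49.09 and 46.10 FPKM, and the groups overlapped only through LV-NC 2 and LV-SNORA28 1. The log2 difference of ITGB4 was -0.36 (limma adjusted p = 0.134) and that of ITGB5, a partner of ITGAV, was -0.24 (limma adjusted p = 0.224).

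Summed over their listed members, the integrin alpha subunits went from 98.9 ± 5.57 to 83.2 ± 0.802 FPKM and the beta subunits from 178 ± 6.74 to 160 ± 9.995 FPKM (SD, n = 3 each). Neither sum overlapped between groups, and both had an exact permutation p of 0.1, the smallest that 3 against 3 libraries can give. The share of ITGA3 in the alpha sum was 46.7% ± 0.968 in LV-NC and 39.3% ± 5.08 in LV-SNORA28 (exact permutation p = 0.1).

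Of the 6 laminin chains tested 2 rose and 0 fell by the limma adjusted p, with 1 lower chain (LAMC1) at an unadjusted p below 0.05 and 0 lower chains at the study threshold. The share called, 33.3%, stands beside 8.91% of all genes tested, 6.81% higher and 2.1% lower. With 6 chains it is a description only. LAMB3 (ENSG00000196878, chr1:209614870-209652425), the beta chain of the epithelial anchoring laminin, read 19.34, 16.21 and 18.79 FPKM in LV-NC, against 30.97, 28.21 and 25.34 FPKM in LV-SNORA28. The lowest LV-SNORA28 library lay above the highest LV-NC library. Its mean rose 1.56-fold, from 18.1 ± 1.67 to 28.2 ± 2.82 FPKM (SD, n = 3 each), with a log2 difference of 0.61 ± 0.10 (SE, limma adjusted p = 0.0188). The call ended without LV-NC 3, LV-SNORA28 1 or LV-SNORA28 2, where the adjusted p was 0.0524 to 0.0722.

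LAMB1 (ENSG00000091136, chr7:107923799-108003213), the beta chain of the laminins of most basement membranes, read 5.21, 4.36 and 4.49 FPKM in LV-NC and 7.47, 7.18 and 6.83 FPKM in LV-SNORA28. Again no library of one group reached the range of the other. Its mean rose 1.53-fold, from 4.69 ± 0.458 to 7.16 ± 0.320 FPKM (SD, n = 3 each), with a log2 difference of 0.52 ± 0.08 (SE, limma adjusted p = 0.0170). The call ended without LV-NC 3, LV-SNORA28 1, LV-SNORA28 2 or LV-SNORA28 3, where the adjusted p was 0.0552 to 0.0687. LAMB1 overlaps DLD on the opposite strand, and DLD read 17.88 to 19.67 FPKM in LV-NC and 21.03 to 22.63 FPKM in LV-SNORA28. The library kit keeps the strand, but whether counting used it is not given in the sources used here.

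LAMA3, the alpha chain that assembles with LAMB3, read 0.91, 0.79 and 0.92 FPKM and then 1.33, 1.32 and 1.33 FPKM. The groups did not overlap, and the log2 difference of 0.31 missed the threshold (limma adjusted p = 0.0588).

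LAMC1, the gamma chain found in most laminins, read 25.79, 20.72 and 25.23 FPKM in LV-NC, against 20.23, 19.02 and 20.45 FPKM in LV-SNORA28. LV-NC 2 lay just above LV-SNORA28 3, so the groups were narrowly apart, and the log2 difference of -0.25 did not pass (limma adjusted p = 0.144). LAMA5, the main alpha chain of mature epithelial basement membrane, read 24.27, 13.48 and 16.31 FPKM and then 14.99, 12.54 and 13.85 FPKM (log2 difference -0.33, limma adjusted p = 0.337). LV-NC 1 stood apart from the other 2 LV-NC libraries for LAMA5, and without it the log2 difference was -0.10. For LAMB2 the log2 difference was 0.11 (limma adjusted p = 0.686). LAMB3 made up 23.0% ± 1.9 of the summed laminin chains in LV-NC and 33.0% ± 1.66 in LV-SNORA28, and LAMC1 30.3% ± 2.38 and 23.4% ± 1.6 (SD, n = 3 each, exact permutation p = 0.1 for each share). The sum itself, 79.4 ± 12.8 and 85.2 ± 5.95 FPKM, had an exact permutation p of 0.5.

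**Figure D3:**
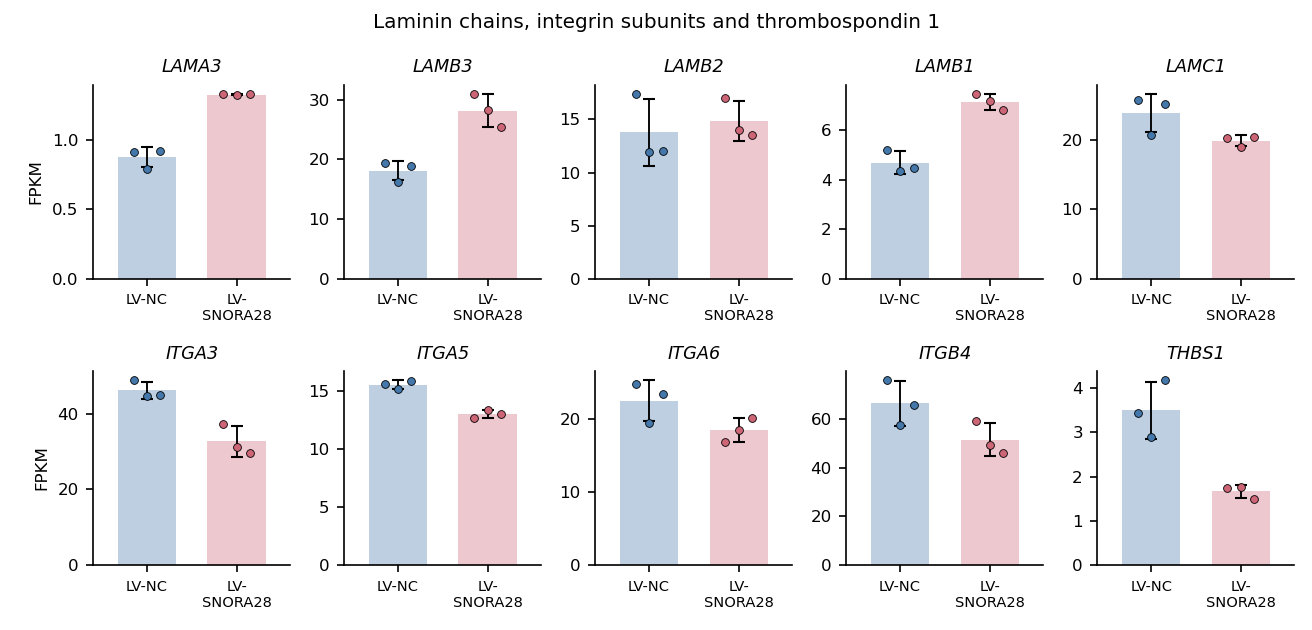
FPKM of laminin chains, integrin subunits and THBS1 in the 3 LV-NC and 3 LV-SNORA28 libraries. Points are libraries, bars are means and error bars are SD. LAMB3, LAMB1 and LAMA3 are higher and ITGA3, ITGA5, LAMC1 and THBS1 lower in all 3 LV-SNORA28 libraries, of which LAMB1, LAMB3, ITGA3 and THBS1 passed the limma adjusted p.

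The ratio of partner chains within a library does not depend on a single scale factor for that library. Quantile normalization and removal of GC or length trends can move it, and they were not applied to the ratios. Of 16 pairs listed, 13 had both genes tested, 2 did not overlap between groups and 11 did, and since an exact permutation test of 3 against 3 cannot go below 0.1, no pair could pass (smallest p adjusted over the 13 pairs 0.433). LAMB1 stood at 19.6% of LAMC1 in LV-NC and at 35.97% in LV-SNORA28, a log2 ratio of -2.35 ± 0.126 against -1.47 ± 0.0942 (SD, n = 3 each) and a difference of 0.87 (exact permutation p = 0.1). ITGA2 stood at 5.61% of ITGB1 and then at 9.37%, a difference of 0.74 on the log2 scale (exact permutation p = 0.1). These were the pairs without overlap. LAMA3 stood at 4.82% and 4.72% of LAMB3, a log2 ratio difference of -0.03 (exact permutation p = 0.7). COL6A1 to COL6A2, both chains of type VI collagen, differed by 0.02 (exact permutation p = 0.7). ITGA3 to ITGB1 differed by -0.50 with overlap (exact permutation p = 0.2), and ITGB1 was lowest in LV-SNORA28 1 and highest in LV-SNORA28 3.

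**Figure D4:**
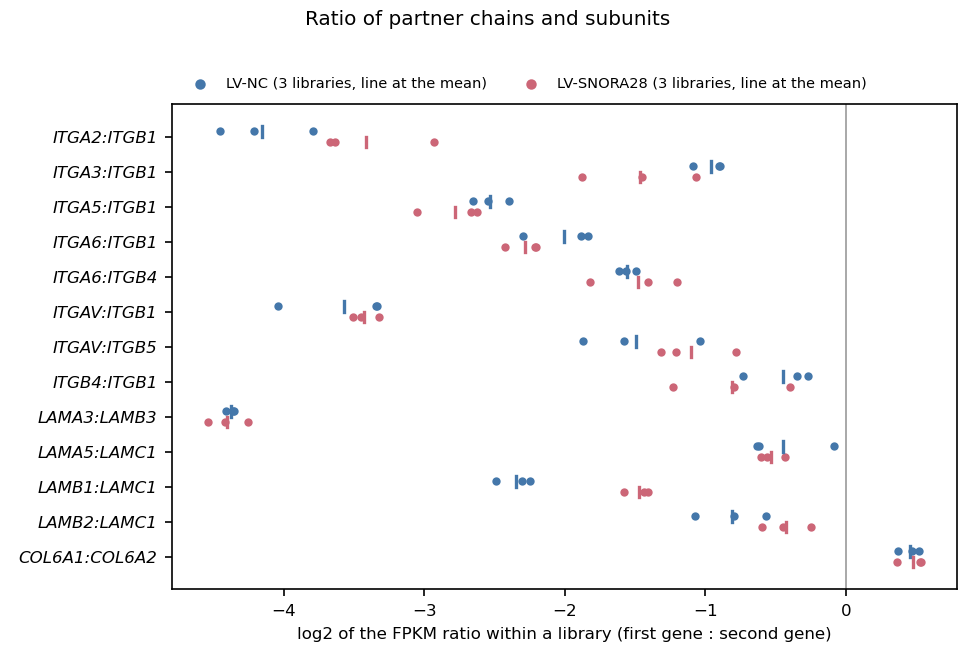
Log2 ratio of the FPKM of 13 partner pairs within each library, LV-NC above LV-SNORA28 for each pair, with short lines at the means. LAMB1 to LAMC1 and ITGA2 to ITGB1 are the 2 pairs whose groups do not overlap.

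Of the 7 collagen chains listed, 3 were tested and 4 lay under the level filter. Collagen chains outside these 7 were present too. Among them, named after their values were seen, COL12A1 read 11.83 to 17.11 FPKM, COL1A1 3.16 to 4.46 and COL4A5 2.26 to 3.81. COL4A1 and COL4A2, the network-forming chains of basement membrane, were at or below 0.05 FPKM in every library, COL5A1, a fibril-forming chain, at or below 0.08 FPKM, and COL17A1, a hemidesmosome collagen, at or below 0.39 FPKM. The chains that were tested, COL6A1, COL6A2 and COL18A1, the last the source of endostatin, had log2 differences of -0.19, -0.21 and -0.08, and the groups overlapped for each. COL6A1 was the most abundant, at 35.16, 28.56 and 27.69 FPKM in LV-NC and 31.25, 24.77 and 23.84 FPKM in LV-SNORA28. Of the 3, 0 passed the limma adjusted p, 0 had an unadjusted p below 0.05 and 0 passed the study threshold.

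THBS1 (ENSG00000137801, chr15:39581079-39599466), which activates latent TGF-beta and binds CD47 and integrins, read 3.43, 2.90 and 4.18 FPKM in LV-NC and 1.74, 1.76 and 1.49 FPKM in LV-SNORA28. The lowest LV-NC library lay above the highest LV-SNORA28 library. The mean fell 2.11-fold, from 3.50 ± 0.643 to 1.66 ± 0.15 FPKM (SD, n = 3 each), and the log2 difference was -0.75 ± 0.12 (SE, limma adjusted p = 0.0178). The call ended without LV-SNORA28 1, LV-SNORA28 2 or LV-SNORA28 3, where the adjusted p was 0.0534 to 0.0700. FN1, which encodes fibronectin, read 1.01, 0.77 and 1.03 FPKM and then 1.31, 1.24 and 1.51 FPKM, without overlap (log2 difference 0.28, limma adjusted p = 0.121). TNC (tenascin C) was at or below 0.03 FPKM.

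Of the syndecans, heparan sulfate proteoglycans that bind matrix beside integrins, SDC4 was among the most abundant genes, at 68.87, 67.87 and 69.70 FPKM in LV-NC and 66.94, 64.35 and 63.31 FPKM in LV-SNORA28. Every LV-SNORA28 library lay below every LV-NC library, by a log2 difference of -0.08 (limma adjusted p = 0.340). SDC1 differed by 0.21 with overlap.

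Focal adhesion proteins were abundant, from 8.61 FPKM for PTK2 to 40.55 FPKM for ZYX, and the groups overlapped for all 6. PTK2 is focal adhesion kinase, PXN is paxillin, VCL vinculin, TLN1 talin, ZYX zyxin and ILK integrin-linked kinase. The log2 differences ran from -0.11 for ZYX to 0.13 for ILK, and the 95% intervals together ran from -0.36 for ZYX to 0.34 for ILK. By limma 0 of the 6 passed the adjusted p, 0 had an unadjusted p below 0.05 and 0 passed the study threshold. Their sum was 150 ± 2.69 and 149 ± 4.95 FPKM (SD, n = 3 each, exact permutation p = 0.9).

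The 9 genes under the level filter, ITGA1, ITGB6, ITGB8, LAMA1, COL4A1, COL4A2, COL5A1, COL17A1 and TNC, reached 0.39 FPKM at most. In a limma fit of the 32761 genes that were above 0 somewhere, 0 of them passed the adjusted p and 0 had an unadjusted p below 0.05. ITGB6 and ITGB8 pair with ITGAV, ITGA1 is a collagen receptor subunit and LAMA1 is an embryonic laminin chain, read at 0 FPKM in 5 of 6 libraries.

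Of 195 further genes in 7 lists of the same pathway, 119 were tested, 6 rose and 8 fell (11.8%, beside 8.91% of all genes). The rest of the integrin subunits were nearly absent, with 1 of 14 tested, ITGA7, which did not pass. Of 21 further basement membrane genes 9 were tested and DAG1, the dystroglycan receptor for laminin, rose by 0.46 on the log2 scale (limma adjusted p = 0.0269), a call that ended whichever library was left out. Of 29 further interstitial and matricellular matrix genes 9 were tested and 0 called (2 at an unadjusted p below 0.05, both lower, and 0 at the study threshold). Of 22 further receptors and integrin partners 18 were tested and GPC1, a glypican, fell by 0.40 on the log2 scale (limma adjusted p = 0.0295), a call kept only without LV-NC 1.

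Of 50 further focal adhesion proteins 40 were tested, 3 rose and 0 fell by limma (7.5% called, near the 8.91% of all genes), and 1 lower gene, KANK2, named after its value was seen, passed the study threshold alone (log2 difference -0.61, limma adjusted p = 0.117). GIT1, a scaffold of focal adhesion turnover, read 10.66, 10.01 and 10.03 FPKM and then 16.39, 14.16 and 15.56 FPKM (log2 difference 0.54, limma adjusted p = 0.0109), and its p was 0.0503 without LV-SNORA28 3. KANK1, which links talin to the cortex, and FYN, a Src family kinase, rose by 0.52 and 0.42 on the log2 scale (limma adjusted p = 0.0241 and 0.0423), and both calls ended whichever library was left out. Their levels were low, 0.91 to 2.17 FPKM for KANK1 and 1.62 to 3.06 FPKM for FYN.

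Of 30 matrix proteases and inhibitors 17 were tested and 3 were called (17.6%, beside 8.91% of all genes). CTSB, the lysosomal and secreted protease cathepsin B, read 19.03, 18.84 and 17.19 FPKM in LV-NC and 34.22, 29.73 and 35.92 FPKM in LV-SNORA28 (log2 difference 0.82, limma adjusted p = 0.0063). It passed in all 9 other ways of processing and with each of the 6 libraries left out. SERPINE2, a serpin that inhibits thrombin and plasminogen activators, fell by 0.35 on the log2 scale (limma adjusted p = 0.0389), a call that ended whichever library was left out.

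Genes that fold, modify, export and crosslink collagen were called lower more than higher, in a list chosen with earlier results of these data known. Of 29 such genes 25 were tested, 0 rose and 6 fell (24% called, beside 8.91% of all genes, 6.81% higher and 2.1% lower). The groups did not overlap for 12 lower and 3 higher genes, beside 8.16% of all genes lower and 27.0% higher without overlap. For a list so chosen these shares are a description only. The median log2 difference was -0.15 over the 25 genes and 0.09 over all genes.

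PPIB, the peptidyl-prolyl isomerase cyclophilin B, was the most abundant of the genes that fell, at 270.45, 269.81 and 266.31 FPKM in LV-NC and 191.79, 191.09 and 177.92 FPKM in LV-SNORA28. The groups stood far apart, with a log2 difference of -0.52 (limma adjusted p = 0.0063). PPIB overlaps SNX22, which read at most 4.33 FPKM. P3H1, a prolyl 3-hydroxylase, and CRTAP form a complex with PPIB, and both are named after their values were seen. P3H1 read 4.66, 4.43 and 4.08 FPKM and then 3.25, 3.21 and 3.36 FPKM (log2 difference -0.33, limma adjusted p = 0.0391), and CRTAP 25.39, 26.43 and 24.59 FPKM and then 19.98, 21.27 and 19.16 FPKM (log2 difference -0.33, limma adjusted p = 0.0309). Neither pair of groups overlapped, and both calls ended whichever library was left out.

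P3H4, which acts with a lysyl hydroxylase, read 8.60, 7.89 and 8.09 FPKM and then 5.42, 5.19 and 4.86 FPKM (log2 difference -0.58, limma adjusted p = 0.0089). P3H4 and PPIB passed in all 9 other ways of processing and with each of the 6 libraries left out. COLGALT1, a collagen galactosyltransferase, and SEC24D, a coat protein of the vesicles that carry procollagen, fell by 0.35 and 0.40 on the log2 scale (limma adjusted p = 0.0391 and 0.0233). The COLGALT1 call ended whichever library was left out, and that of SEC24D was kept only without LV-NC 2 or LV-SNORA28 1. SERPINH1, the collagen chaperone HSP47, differed by -0.05 with overlap.

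**Figure D5:**
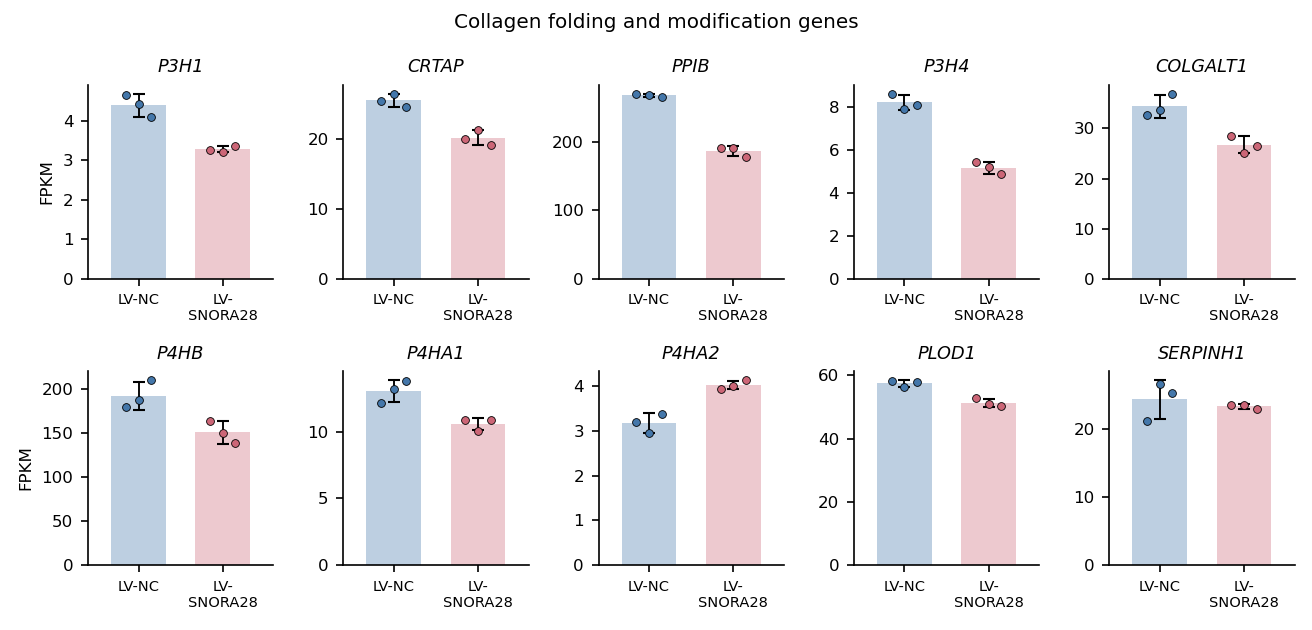
FPKM of 10 genes of collagen folding and modification in the 3 LV-NC and 3 LV-SNORA28 libraries, points for libraries, bars for means and error bars for SD. P3H1, CRTAP, PPIB, P3H4 and COLGALT1 passed the limma adjusted p. P4HB, P4HA1 and PLOD1 lay lower and P4HA2 higher in all 3 LV-SNORA28 libraries without passing it, and SERPINH1 overlapped.

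Another scaling changed the balance of calls over all genes. There were 822 genes higher and 254 lower as reported, 451 higher and 375 lower after quantile normalization, 366 and 340 after removing a trend with GC content, and 516 and 479 after removing a trend with transcript length. Among the 28 genes the counts were 2 higher and 2 lower as reported, 2 and 3 after quantile normalization or removal of the GC trend, and 2 and 5 after removal of the length trend. ITGA3, THBS1, LAMB1 and LAMB3 kept their direction and their call under all of these scalings, and the genes added were ITGA5 and, with the length trend removed, ITGA6 and LAMC1. Rescaling to genes outside the mitochondrial genome likewise gave 2 higher and 3 lower.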

How the data were processed

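Poly(A)+ RNA from 6 HCT116 libraries (LV-NC 1 to 3, LV-SNORA28 1 to 3, from the sample titles) was sequenced as stranded paired ends. For each library the authors deposited FPKM values keyed by Ensembl identifier. The submitters' processing notes name hg38, cutadapt 1.9, HISAT2 2.2.1, StringTie 2.1.6, DESeq2 and edgeR without their roles. Raw counts, depth and annotation release are not given in the sources used here. FPKM is relative to all mapped fragments, so abundant transcripts shift every other value.

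Symbols and gene coordinates came from GENCODE v44 on GRCh38, which matched 60401 of 60612 genes (211 did not). Values were taken as log2(FPKM + 1), a scale on which changes of weakly expressed genes appear smaller. Genes averaging 1 FPKM or more (12076) were fitted with limma 3.58.1 (lmFit, eBayes with trend) in R 4.3.3, with group as the only term, two-sided p-values and Benjamini-Hochberg adjustment over all 12076 genes. Ratios and sums were compared by two-sided exact permutation tests of 3 against 3 in Python 3.11.15. The fit was tested on simulated data.

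The members and lists were chosen with earlier results of these data known. All 37 members are accounted for, those called or most abundant in their role in full. Of each further list, up to 4 genes per direction with an adjusted p below 0.05 and the largest change were named, except that some items are not reported here. Alternatives were no trend, quantile normalization, scaling to non-mitochondrial genes, no filter, a mean of at least 5 FPKM, a pseudocount of 0.1, a replicate block, removal of GC or length trends, and leaving out each library.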

Additional observations from a re-analysis of the deposited data

How the results depend on the processing

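Of the 37 genes, 4 were called as reported, 1 (LAMB1) with no filter, 7 with the length trend removed and 0 to 3 when 1 library was left out (0 by limma without LV-SNORA28 2, where 7 had an unadjusted p below 0.05, and 1 without LV-NC 3, LV-SNORA28 1 or LV-SNORA28 3). Without a filter, more genes enter the adjustment, and without a library fewer samples enter the fit. The count at the study threshold, on the log2(FPKM + 1) scale, was 3 as reported and 1 (THBS1) after quantile normalization or with the GC trend removed. The count over the 7 further lists was 14 as reported, 4 with no filter, 5 with the replicate block and 4 to 6 with 1 library left out. Over all genes 1076 were called as reported, 397 with no filter, 706 with the GC trend removed, 510 with the replicate block and 279 to 628 with 1 library left out. The replicate numbers did not pair the samples: deviations of libraries with the same number correlated at -0.04, 0.09 and 0.01, and the replicate block called 3 of the 37 genes, without THBS1. Directions reversed only for small differences: ITGAV was -0.043 with the GC trend removed (-0.044 to 0.2321 with 1 library left out), PTK2 was -0.0529, -0.0704 and -0.0644 and PXN -0.0606, -0.0206 and -0.0904 under quantile normalization, GC and length trend removal, PXN was -0.0153 under non-mitochondrial scaling (-0.0290 to 0.0479 with 1 library left out), and VCL -0.0032 and -0.0119 under quantile normalization and length trend removal. With 1 library left out ITGB1 ran from -0.1386 to 0.0952 and ZYX from -0.1744 to 0.000796. The cause was not tested. SNORA28 passed in every alternative. Depth is unknown, so the precision of genes near 1 FPKM, such as LAMA3, FN1 and KANK1, is known only from the spread between libraries.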
